A study of Gossypium hirsutum with 24 samples.

Results

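Allene oxide synthase (AOS) is represented here by 3 of the 23972 probe sets of the Affymetrix Cotton GeneChip in the deposited table: Ghi.10001.1.A1_at, Ghi.10001.1.S1_s_at and Ghi.10001.2.S1_at. They share the first part of the identifier and are called below by its end, 1.A1_at, 1.S1_s_at and 2.S1_at. They were taken because the study lists them under jasmonic acid (JA) biosynthesis and matches all of them to Gorai.009G274700.1, a gene of Gossypium raimondii, a relative of cultivated cotton. The study drew that list from probe sets that responded to feeding on these same arrays, so the difference between fed-upon and undamaged leaves chose the members and is given below as a description, with no test. A further probe set with that first part, Ghi.10001.2.A1_at, has no values in the table. The 3 probe sets are matched to the same G. raimondii gene and are not replicates of each other. Whether they report on the same gene of cultivated cotton was not tested. The _s_at suffix marks a probe set whose probes can match several related transcripts.

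AOS belongs to the CYP74 group of cytochrome P450 enzymes, which rearrange lipid hydroperoxides without needing molecular oxygen. In the chloroplast, lipoxygenase (LOX) adds oxygen to linolenic acid, AOS turns the resulting hydroperoxide into an unstable allene oxide, and allene oxide cyclase (AOC) closes it into the ring of 12-oxophytodienoic acid. A reductase (OPR) and rounds of beta-oxidation in the peroxisome then give JA, the hormone through which many plants answer chewing insects.

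Whole leaves of Gossypium hirsutum cv. CCRI12 at the 6-7 leaf stage were compared between plants exposed to third-instar larvae of the cotton bollworm (CBW, Helicoverpa armigera) and undamaged control plants kept under the same conditions. Leaves were harvested 6, 12, 24 and 48 h after feeding began and continued throughout, and each of the 8 groups (4 times, fed upon or not) has 3 arrays, 24 in all. Each array holds the pooled leaves of 3 plants, and the labels call the arrays biological replicates. The sources differ on the number of larvae and on the kind of bag that held them. The values are the deposited MAS5 intensities, on a linear scale. Array medians lay between 358 and 399, and arrays of the same group correlated with r of 0.931 to 0.995 on the log2 scale. Values are present for 15615 probe sets at 1 time or more and for 13341 on all arrays, among them the 3 AOS probe sets. A single probe set named for a chlorophyll A-B binding protein had intensities of 408 to 683 on the 12 CBW arrays and 78.3 to 899.9 on the 12 control arrays. The lowest of these control values was below the 20th percentile of every array (106 to 121), so no check of the tissue rests on it.

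The intensities of the 3 AOS probe sets were higher in CBW-damaged leaves than in control leaves at every time. After 6 h of feeding, 1.A1_at had intensities of 9686, 6457 and 7696 in CBW-damaged leaves, against 275, 658 and 459 in control leaves. 1.S1_s_at had 805, 588 and 607 in CBW-damaged leaves, against 45.4, 72.0 and 52.7 in control leaves. For 2.S1_at the intensities were 3524, 1945 and 2890.2 in CBW-damaged leaves and 67.6, 160.0 and 208 in control leaves. In each probe set the lowest CBW array was far above the highest control array, and the first CBW array was the highest of all 24. Of all probe sets tested at 6 h, 28% had the 3 CBW arrays entirely above the 3 control arrays. In leaf RNA pooled from many cells, a change in the number of cells that express a gene and a change in its RNA per cell cannot be told apart.

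After 12 h, 1.A1_at had 5954, 5536 and 6042 in CBW-damaged leaves, against 447, 152 and 281 in control leaves. The intensities of 1.S1_s_at were 510.1, 451 and 483 in CBW-damaged leaves and 53.3, 43.6 and 49.6 in control leaves. Those of 2.S1_at were 1986, 1464.5 and 1938 in CBW-damaged leaves and 116, 88.5 and 74.3 in control leaves. The CBW arrays lay closer together than at 6 h, while the control arrays of 1.A1_at stayed about as far apart. Again all CBW arrays lay above all control arrays in the 3 probe sets, as in 23.5% of all probe sets at that time.

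After 24 h the intensities in CBW-damaged leaves were at or near their lowest. 1.A1_at had 3205, 3379.5 and 2813 in CBW-damaged leaves, against 340.2, 586 and 172 in control leaves. 1.S1_s_at had 292, 273 and 254 in CBW-damaged leaves and 64.6, 65.4 and 43.2 in control leaves. 2.S1_at had 781, 822 and 517 in CBW-damaged leaves and 75.0, 149.6 and 67.2 in control leaves. The gap between the groups was narrower than at 12 h in each probe set, and the groups still did not overlap, as in 23.6% of all probe sets.

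After 48 h, 1.A1_at had 3722, 3855 and 3831 in CBW-damaged leaves, against 354, 154 and 282 in control leaves. The values of 1.S1_s_at were 359.8, 301 and 339 in CBW-damaged leaves and 41.4, 46.9 and 52.0 in control leaves. 2.S1_at read 691, 628 and 569 in CBW-damaged leaves and 69.6, 47.3 and 75.5 in control leaves. The groups did not overlap, as in 31.1% of all probe sets at 48 h. Over the whole course, the 3 AOS probe sets were among the 5.16% of probe sets with values on all arrays whose 12 CBW arrays all lay above their 12 control arrays. Since the rule drew on this contrast, nothing is read from these shares.

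**Figure D1:**
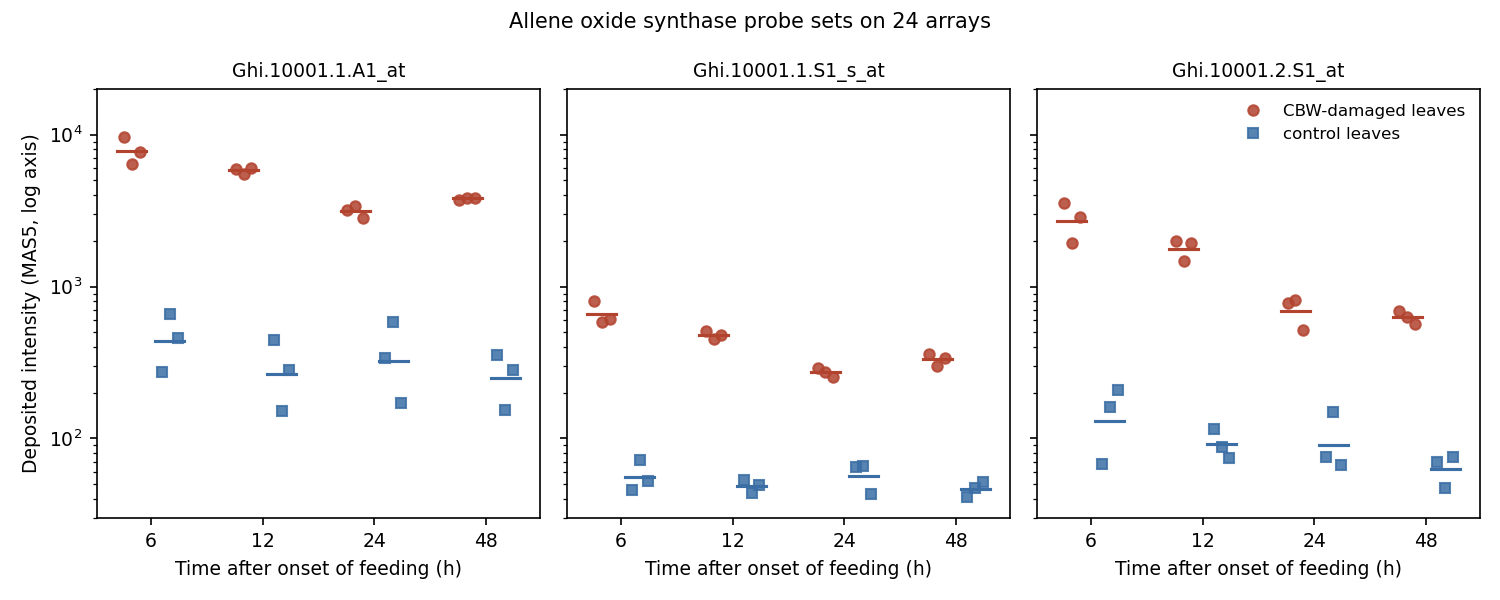
Deposited intensity (log axis) of the 3 AOS probe sets on each array by time after onset of feeding, with CBW-damaged leaves as circles to the left and control leaves as squares to the right; horizontal bars are the means of the log2 values of 3 arrays. All 12 CBW arrays lie above all 12 control arrays in each panel, and the CBW arrays of 1.S1_s_at span 254 to 805, against 41.4 to 72.0 in control leaves.

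On the log2 scale, the difference CBW minus control of 1.A1_at was 4.17, 4.45, 3.26 and 3.94 at 6, 12, 24 and 48 h (SE 0.409, n = 3 arrays per group, limma). These are ratios (SE is the standard error, in log2 units) of 18.0-fold, 21.9-fold, 9.61-fold and 15.3-fold. For 1.S1_s_at the differences were 3.57, 3.30, 2.26 and 2.84 at the 4 times in the same order (SE 0.175), and for 2.S1_at they were 4.37, 4.28, 2.93 and 3.32 (SE 0.359). As deposited, each of the 3 probe sets had its smallest difference at 24 h, and the change in difference from 24 to 48 h was called by limma in none of them. The median difference over all probe sets tested was -0.13, -0.04, -0.08 and 0.00348 at these times.

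Many control values were dim. All 12 control arrays of 1.S1_s_at and 8 of 12 of 2.S1_at were below the 20th percentile of their own array, which lay between 106 and 121, whereas none of the 12 control arrays of 1.A1_at was. With intensities below that percentile raised to it, the differences of 1.S1_s_at were 2.54, 2.06, 1.19 and 1.49 at 6, 12, 24 and 48 h. Those of 2.S1_at were then 2.43 at 24 h and 2.41 at 48 h, so its smallest difference was no longer at 24 h.

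**Figure D2:**
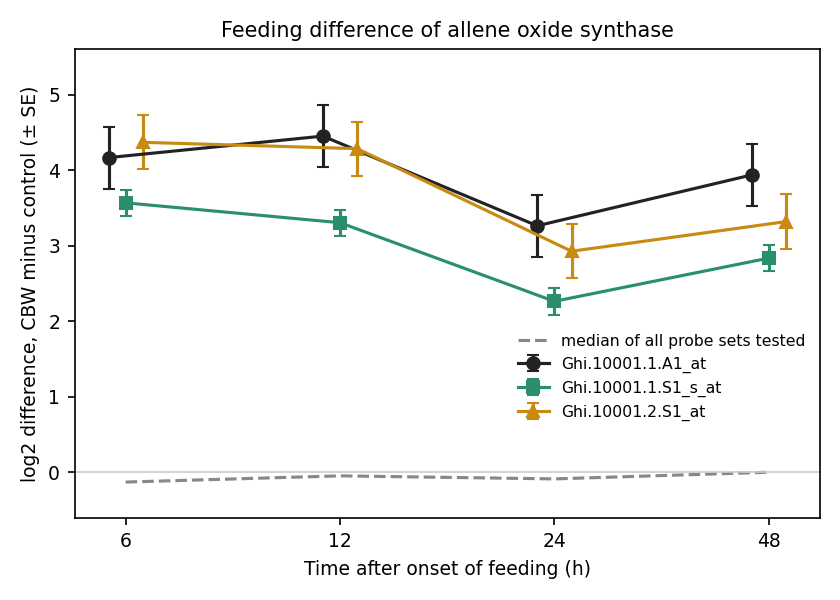
Difference in log2 intensity, CBW minus control, of the 3 AOS probe sets at each time (points; bars are ± 1 standard error from limma, n = 3 arrays per group), with the median of all probe sets tested as a dashed line. The AOS differences lie between 2.26 and 4.45, with the lowest point of each probe set at 24 h.

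The control arrays were more spread than the CBW arrays. Pooled over the 4 times, the SD of log2 intensity within groups was 0.166 in CBW-damaged leaves and 0.738 in control leaves for 1.A1_at. It was 0.156 in CBW-damaged leaves and 0.264 in control leaves for 1.S1_s_at, and 0.318 in CBW-damaged leaves and 0.580 in control leaves for 2.S1_at. At 48 h the 3 CBW arrays of 1.A1_at differed by 1.04-fold from lowest to highest, while the 3 control arrays differed by 2.30-fold. The limma fit uses the same spread for both groups, so its standard error for 1.A1_at is set mostly by the control arrays.

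The rule did not compare levels between times, and these were tested. A response at any time could bring a probe set into the study's list, so the list drew on the intensities compared here. The p-values between times are therefore not free of that choice. In CBW-damaged leaves, the mean AOS level was highest at 6 h in all 3 probe sets, and the level had fallen by 48 h. The lead of 6 h over 12 h was not called in 1.A1_at or 2.S1_at. Mean intensity of 1.A1_at was 7946 ± 1629, 5844 ± 270.2, 3133 ± 290.3 and 3802 ± 71.1 after 6, 12, 24 and 48 h (SD, n = 3). For 1.S1_s_at the means were 667 ± 120.2, 481 ± 29.6, 273 ± 18.7 and 333 ± 29.8 at the same times. The corresponding means of 2.S1_at were 2786.5 ± 795, 1796 ± 288, 707 ± 165 and 629 ± 60.8. In order of level this gives 6, 12, 48 and 24 h for the first 2 probe sets and 6, 12, 24 and 48 h for 2.S1_at.

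The level in CBW-damaged leaves changed by -1.04 on the log2 scale between 6 and 48 h in 1.A1_at (SE 0.409, limma adjusted p = 0.0457). The change was -0.99 in 1.S1_s_at (SE 0.175, limma adjusted p = 0.000201) and -2.11 in 2.S1_at (SE 0.359, limma adjusted p = 0.000143). In all 3 the arrays at 48 h lay below those at 6 h. In this comparison 17.6% of all probe sets tested were called lower and 26.6% higher, or 22.7% lower after either rescaling of the arrays. The call for 1.A1_at was close to the threshold of 0.05: leaving out any of the 6 arrays compared gave adjusted p = 0.0551 to 0.131 from limma, with a change of -1.18 to -0.89.

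The step between 12 and 24 h held most of the fall. The level of 1.S1_s_at fell by 0.82 (limma adjusted p = 0.00185) and that of 2.S1_at changed by -1.36 (limma adjusted p = 0.00879), 2 of the 3 probe sets in a comparison in which 12.9% of all probe sets were called lower. The call for 2.S1_at was lost without replicate 3 of CBW-damaged leaves at 24 h, with a difference of -1.15 and adjusted p = 0.0522 from limma. 1.A1_at differed by -0.90 and was not called (adjusted p = 0.119 from limma), although its CBW arrays at 24 h all lay below those at 12 h. In a fit of only the 6 arrays compared, which leaves out the spread of the control arrays, its adjusted p was 0.00156 from limma.

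The neighbouring steps were smaller. From 6 to 12 h, 1 of 3 probe sets was called, 1.S1_s_at with a change of -0.46 (adjusted p = 0.0441 from limma), beside 18.7% of all probe sets called lower. That call did not hold in a fit of only the arrays compared (adjusted p = 0.0508 from limma) or without any of 5 of the 6 arrays, for which adjusted p was 0.0536 to 0.191 from limma. Between 24 and 48 h none of the 3 was called by limma, at an unadjusted p of 0.05 none was either, and 1.71% of all probe sets were called in either direction. The differences were 0.28, 0.29 and -0.14 (adjusted p = 0.754, 0.390 and 0.866 from limma), so that the order of these neighbouring times was not resolved.

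In control leaves no step between neighbouring times was called for AOS. Mean intensity of 1.A1_at was 464 ± 191, 293 ± 148, 366 ± 208 and 263 ± 101 after 6, 12, 24 and 48 h (SD, n = 3). For 1.S1_s_at it was 56.7 ± 13.8, 48.8 ± 4.88, 57.7 ± 12.6 and 46.8 ± 5.31, and for 2.S1_at 145 ± 71.4, 92.9 ± 21.1, 97.3 ± 45.5 and 64.1 ± 14.9. Neighbouring times overlapped in every probe set, and in no step from 6 to 12, 12 to 24 or 24 to 48 h was a probe set called by limma or below an unadjusted p of 0.05. These comparisons called 43.1%, 38.6% and 0.37% of all probe sets in either direction.

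Between 6 and 48 h, 1 of 3 was called in control leaves, against 17.9% of all probe sets called lower. In 2.S1_at the change was -1.06 on the log2 scale (SE 0.359, limma adjusted p = 0.0317), with 69.6, 47.3 and 75.5 at 48 h and 67.6, 160.0 and 208 at 6 h, so that the arrays overlapped. The call was lost without any of 4 of these 6 arrays: adjusted p was 0.0511 without replicate 1 and 0.130 without replicate 2 at 48 h, and 0.109 without replicate 2 and 0.174 without replicate 3 at 6 h (limma). It was also lost in a fit of only the arrays compared (adjusted p = 0.139 from limma) and with dim values raised to the 20th percentile (a difference of -0.39, adjusted p = 0.199 from limma). The interval of the difference was -1.67 to 0.0442 for 1.A1_at and -0.62 to 0.11 for 1.S1_s_at (95%).

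Whether the feeding difference itself changed was tested as a difference of differences. Feeding differences at single times chose the members, so these p-values are not free of that choice either. The difference at 24 h minus that at 12 h was -1.04 in 1.S1_s_at (SE 0.247, limma adjusted p = 0.0110), 1 of 3 probe sets called, beside 6.19% of all probe sets called lower, or 5.20% after quantile normalization. The values of the other two were -1.19 in 1.A1_at (adjusted p = 0.197 from limma, 95% interval -2.40 to 0.03) and -1.36 in 2.S1_at (adjusted p = 0.0903 from limma, 95% interval -2.42 to -0.29). With dim values raised to the 20th percentile, 2.S1_at was called as well, at -1.51 (adjusted p = 0.00389 from limma). All 3 probe sets thus had a smaller difference at 24 h, called in 1 of them.

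The feeding difference at 48 h minus that at 6 h was -0.73 in 1.S1_s_at (SE 0.247, limma adjusted p = 0.0281), again 1 of 3 called, beside 11.7% of all probe sets, or 15.5% with arrays centred on their median. The median over all probe sets was 0.15. That call was lost without any of 5 of the 12 arrays, with differences of -0.69 to -0.58 and adjusted p of 0.0593 to 0.0750 from limma; these were control replicates 1 and 3 and CBW replicate 1 at 6 h, control replicate 3 and CBW replicate 2 at 48 h. 2.S1_at had -1.05 (adjusted p = 0.116 from limma), or -1.72 with dim values raised to the 20th percentile (adjusted p = 0.000578 from limma). 1.A1_at had -0.23 (adjusted p = 0.787 from limma, 95% interval -1.44 to 0.98). From 6 to 12 h and from 24 to 48 h none of the 3 was called by limma, beside 30.5% and 0.746% of all probe sets called in either direction. At an unadjusted limma p of 0.05 or less, 1.S1_s_at passed from 24 to 48 h with a difference of 0.57 (limma adjusted p = 0.302).

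**Figure D3:**
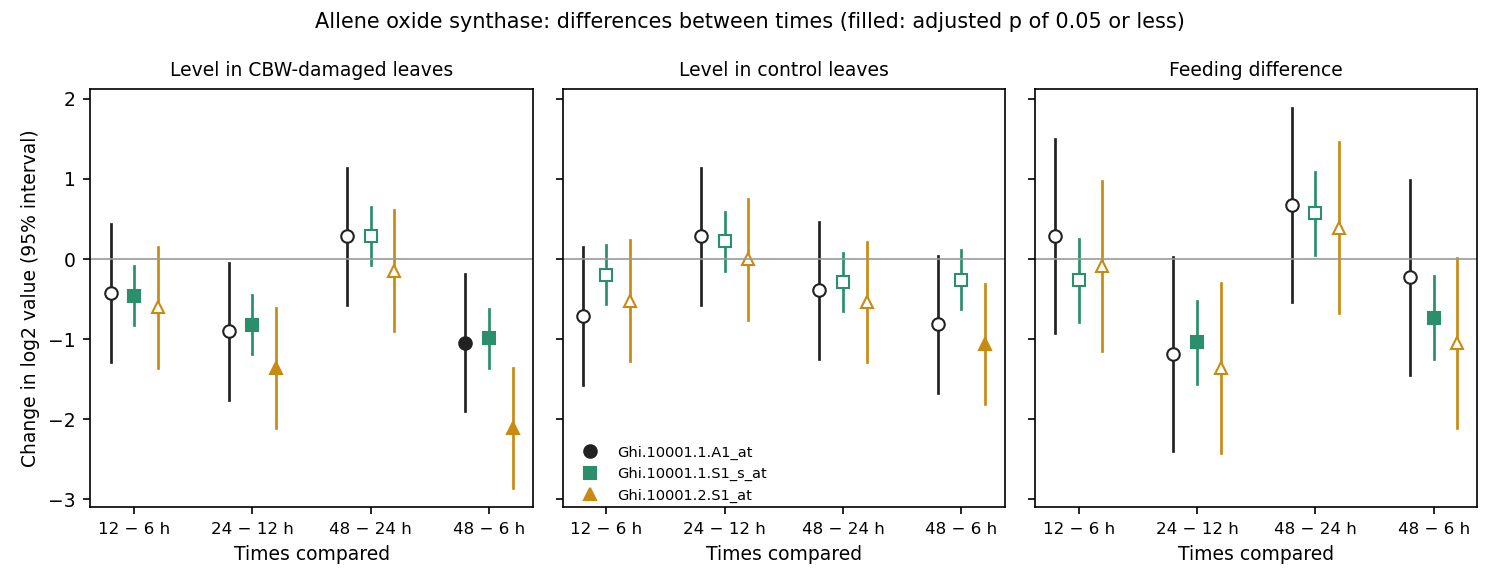
Change in log2 value between times for the 3 AOS probe sets: the level in CBW-damaged leaves, the level in control leaves, and the feeding difference (CBW minus control); points are estimates, lines 95% intervals from limma, and filled points have an adjusted p of 0.05 or less. In CBW-damaged leaves all 3 points for 48 against 6 h are filled and lie between -2.11 and -0.99.

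The 3 probe sets agreed in direction but not in size. Over the 24 arrays their log2 intensities correlated pairwise with r of 0.976 to 0.984, and their deviations from the group means with r of 0.583 to 0.723; the probe sets share RNA, arrays and scaling, so these are descriptions. Averaged over the 4 times, the feeding difference of 1.A1_at minus that of 1.S1_s_at was 0.96 on the log2 scale. It was -0.73 for 1.S1_s_at minus 2.S1_at, and 0.23 for 1.A1_at minus 2.S1_at. These values come from the contrast that chose the members and are given with no test.

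With intensities below the 20th percentile raised to it, the same 3 values were 2.14, -1.41 and 0.73, each over 1.5 times as large. The sizes of the feeding difference in 1.S1_s_at and 2.S1_at thus depended on how dim control values were treated, while those of 1.A1_at did not change.

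Within CBW-damaged leaves the change from 6 to 48 h also differed in size between probe sets, a comparison chosen after the values were seen and given with no test. On the same array, the ratio of 1.A1_at to 2.S1_at was 5.39 to 6.73 at 48 h and 2.66 to 3.32 at 6 h. The log2 ratio changed by 1.07 for 1.A1_at to 2.S1_at, by 1.12 for 1.S1_s_at to 2.S1_at and by -0.05 for 1.A1_at to 1.S1_s_at.

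A second G. raimondii gene, Gorai.010G013600.1, carries the annotation of AOS in the study's table under the name of a putative cytochrome P450. Its probe set ending in 1.A1_at, called P450 probe set here, has no values at 6 h. In CBW-damaged leaves it had 142, 149 and 134 after 12 h, then 363, 523 and 263 after 24 h, and 539, 797 and 663 after 48 h. In control leaves it had 15.3, 65.1 and 29.2 after 12 h, then 24.2, 30.5 and 15.1 after 24 h, and 19.9, 19.9 and 29.1 after 48 h. The CBW arrays lay above the control arrays each time, and the CBW arrays at 24 h and at 48 h all lay above those at 12 h.

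All 9 of its control arrays were below the 20th percentile of their array and none of the 9 CBW arrays was, so its feeding difference has no firm size. It was 2.20, 4.04 and 4.86 at 12, 24 and 48 h as deposited (SE 0.410), and 0.30, 1.63 and 2.47 with dim values raised to that percentile, an alternative chosen after seeing the data. Its level in CBW-damaged leaves rose by 1.38 between 12 and 24 h (adjusted p = 0.0224 from limma), the interval over which 1.S1_s_at and 2.S1_at fell. The feeding difference at 24 h minus that at 12 h was 1.84 and did not pass the threshold as deposited (adjusted p = 0.0538 from limma), and was 1.33 and passed it with dim values raised (adjusted p = 0.00442 from limma). Another probe set of that gene, ending in 2.A1_x_at, has values at 12 h alone, with 125, 148 and 116 in CBW-damaged leaves and 18.3, 39.9 and 9.33 in control leaves. The _x_at suffix marks probes that can also bind less related transcripts, and its 3 control arrays were also below the 20th percentile. Between the AOS rows the study's list places probe sets of Gorai.008G044100.1 and Gorai.010G013700.1, neither assigned a step here. The first had 907 to 1858 at 6 h, 5198 to 7750 at 12 h and 562 to 1136.5 at 48 h in CBW-damaged leaves. Control leaves had 328 to 562, 887 to 1118 and 417 to 676 at these times. The first had a feeding difference of 0.62 at 48 h, not called (adjusted p = 0.0964 from limma). The other has values at 12 h alone, with a feeding difference of 3.54.

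The study lists 44 probe sets under JA biosynthesis, chosen on these arrays for their response to feeding. Of these, 22 were assigned no step here, so the counts and the brightest probe set given below for a step leave them out. Among these 22, limma called 12 of 20, 19 of 21, 12 of 19 and 12 of 18 tested higher at 6, 12, 24 and 48 h. Without the 3 AOS probe sets, limma called 28 of 37, 37 of 39, 28 of 36 and 28 of 34 of those tested higher at 6, 12, 24 and 48 h, while 1, 0, 0 and 1 were called lower. Of all probe sets tested, 26.1%, 19.9%, 20% and 22.4% were called higher at these times, and the choice of the list by the study fixes this excess. The median log2 difference of the list without AOS was 1.68, 2.10, 1.45 and 1.24. The median of the AOS probe sets alone was 4.17, 4.28, 2.93 and 3.32.

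Upstream of AOS, all 5 probe sets assigned here to LOX were called higher at every time, and all 5 were matched to Gorai.011G060400.1. The brightest, for Lipoxygenase 3 (Gorai.011G060400.1), had intensities of 8478 to 12134 in CBW-damaged leaves and 406 to 551 in control leaves at 6 h. At 12 h it had 7998 to 9014 in CBW-damaged leaves and 1005 to 2096 in control leaves. Its level in control leaves rose by 1.51 between 6 and 12 h and fell by 1.39 between 12 and 24 h (limma adjusted p = 0.000106 and 0.000319), and its feeding difference at 12 h minus that at 6 h was -1.72 (adjusted p = 0.00202 from limma). The same changes of AOS in control leaves were -0.71 to -0.19 and -0.00417 to 0.28 over its 3 probe sets, none of them called. Between 12 and 24 h of feeding, this LOX probe set fell by 0.89 in CBW-damaged leaves (adjusted p = 0.0161 from limma). Its feeding difference at 24 h minus that at 12 h was 0.50 and was not called (adjusted p = 0.409 from limma). The study's list places probe sets of Gorai.009G071200.1 and Gorai.013G124500.1 directly after those of LOX, and none was assigned a step here. A probe set of Gorai.009G071200.1 was called higher at every time, and another was called lower at 48 h, with a feeding difference of -0.52.

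Downstream, both AOC probe sets were called higher at every time. The brighter of them, for Allene oxide cyclase isoform 2 (Gorai.004G046300.1), had 12160 to 12316 in CBW-damaged leaves and 1258 to 2058 in control leaves at 6 h, and 5746 to 8272 in CBW-damaged leaves and 642 to 1436 in control leaves at 48 h. Its CBW arrays at 48 h all lay below those at 6 h, and its change in CBW-damaged leaves, -0.78 from 6 to 48 h, was not called (SE 0.420, adjusted p = 0.139 from limma). The other AOC probe set, for Allene oxide cyclase 4 (Gorai.004G046100.1), had 8539 to 8759 at 6 h and 3026 to 5168 at 48 h in CBW-damaged leaves. It fell by 1.10 between these times (SE 0.280, adjusted p = 0.00405 from limma), a change close in value to the -1.04 and -0.99 of 1.A1_at and 1.S1_s_at. From 12 to 24 h the changes of both AOC probe sets, -0.44 and -0.49, were not called (adjusted p = 0.505 and 0.220 from limma). The probe sets of OPR, which reduces 12-oxophytodienoic acid, were called higher at each time they were measured, 4 at 6 h and 3 at later times. The brightest, for 12-oxophytodienoate reductase 3 (Gorai.009G035400.1), had 8209 to 9806 in CBW-damaged leaves and 2021 to 2593 in control leaves at 6 h, and its feeding difference lay between 1.91 and 2.08 at all times. Less bright probe sets of that gene with values on all arrays differed from each other. One had feeding differences of 2.98, 2.77, 2.39 and 2.14 at 6, 12, 24 and 48 h, and another had 2.19, 2.30, 2.27 and 2.08.

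Beta-oxidation of the reduced product shortens its side chain. Acyl-CoA oxidase (ACX), which opens each round of beta-oxidation, was called higher in 2, 3, 2 and 3 of its 3 probe sets at 6, 12, 24 and 48 h. Its brightest probe set (Gorai.007G240800.1) had 935 to 1414 in CBW-damaged leaves and 620 to 839 in control leaves at 6 h, against 1895 to 2284 in CBW-damaged leaves and 533 to 799 in control leaves at 12 h. Its feeding difference was larger at 12 h than at 6 h by 1.01 (adjusted p = 0.0107 from limma), where the 3 AOS probe sets had 0.28, -0.26 and -0.08. The 3-ketoacyl-CoA thiolase (KAT, Gorai.001G185200.1), which closes each round, changed in CBW-damaged leaves by -2.11 between 12 and 24 h (adjusted p = 0.000799 from limma). Its feeding difference at 24 h minus that at 12 h was -1.54 and was not called (adjusted p = 0.0910 from limma). At 12 h KAT had 770.2 to 1138 in CBW-damaged leaves and 67.9 to 176 in control leaves, and at 24 h it had 149.9 to 287 in CBW-damaged leaves and 46.0 to 94.1 in control leaves. All its control values at 6, 24 and 48 h were below the lowest 20th percentile of any array (106). Its feeding differences at these times therefore have no firm size.

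Jasmonate O-methyltransferase (JMT), which makes methyl jasmonate from JA, had its highest mean in CBW-damaged leaves at 12 h. Its brightest probe set (Gorai.008G065900.1) had 9541 to 11216 in CBW-damaged leaves and 191 to 1188 in control leaves at 12 h, and 2174 to 4937 in CBW-damaged leaves and 245 to 549 in control leaves at 6 h. From 12 to 24 h its level in CBW-damaged leaves changed by -1.33 and was not called (adjusted p = 0.0804 from limma). The change in its feeding difference over those times, -2.36, was not called either (adjusted p = 0.0526 from limma). In CBW-damaged leaves its level rose by 1.58 between 6 and 12 h (adjusted p = 0.0255 from limma). Its feeding difference at 12 h minus that at 6 h was 1.34 and was not called (adjusted p = 0.191 from limma). Over that interval 1.S1_s_at of AOS fell by 0.46, while 1.A1_at and 2.S1_at differed by -0.42 and -0.60 without being called. Of the other 41 listed probe sets, 35 were tested between 6 and 12 h in CBW-damaged leaves, of which 13 were called higher and none lower, beside 21.5% of all probe sets called higher. Between 12 and 24 h, 13 of 36 were called lower and 1 higher, beside 12.9% of all probe sets called lower and 12.9% higher. A response to feeding at any of the times could bring a probe set into the list. Its choice therefore favours probe sets that are high in CBW-damaged leaves at 12 h, and nothing is read from these counts.

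**Figure D4:**
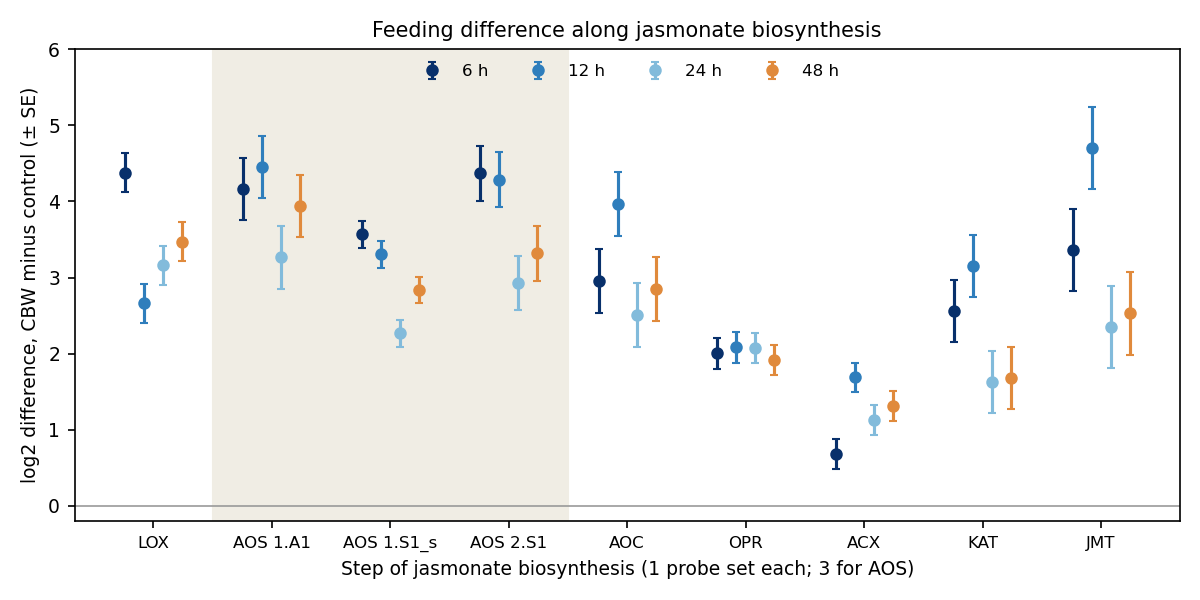
Difference in log2 intensity, CBW minus control, at 6, 12, 24 and 48 h (± 1 standard error, n = 3 arrays per group) along JA biosynthesis, with the brightest probe set for each step and the 3 AOS probe sets shaded. LOX has its highest point at 6 h (4.38), AOC, ACX, KAT and JMT theirs at 12 h, and the OPR probe set shown stays between 1.91 and 2.08. The rise of the feeding difference from 6 to 12 h was called by limma in ACX (1.01). It was not called in AOC (1.02), KAT (0.60) or JMT (1.34).

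Probe sets whose pattern was most like that of AOS were found by Pearson r over the 24 arrays with the mean log2 intensity of the 3 AOS probe sets. Among 13338 compared, 337 had r of 0.9 or more and 71 had 0.95 or more, and the median was -0.08. The large gap between CBW and control arrays sets most of these correlations, and the values share arrays and scaling. The highest r, 0.984, was that of an Integrase-type DNA-binding protein (Gorai.003G048800.1), which the study lists in the ERF family of transcription factors. It was followed by a Polyketide cyclase/dehydrase and lipid transport protein (Gorai.007G018700.1) with 0.983. Within groups, as deviations from the group means, their r was 0.731 and 0.782, against a median of 0.08 over all probe sets.

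Of the 10 most alike, 2 belong to the jasmonate pathway by name. Jasmonate-zim-domain protein 1 (Gorai.009G036800.1), of a family of repressors of JA responses, had r of 0.980, and Allene oxide cyclase 4 (Gorai.004G046100.1), the next enzyme after AOS, had 0.978. The others were an unnamed probe set, Ca2+-binding protein 1, a second probe set of the Polyketide cyclase/dehydrase, Basic region/leucine zipper motif 53, a Pathogenesis-related thaumatin protein and a Peptidase M20/M25/M40 family protein, with r of 0.975 to 0.981. All 10 had positive feeding differences at each time. The best-placed OPR probe set ranked 15 with r of 0.972, and the best-placed LOX probe set ranked 49 with 0.958.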

How the data were processed

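Leaf RNA was hybridised to 24 Affymetrix Cotton GeneChips. The deposited table holds intensity values, which the authors computed with MAS5 per the submitters' processing notes (version and scaling target not given in the sources used here). Where a probe set lacks values at a time, it lacks them on all 6 arrays; which criterion removed them was not stated. Dim values therefore carry no detection call, and the number of arrays limits the precision.

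Intensities were taken to log2 with no further scaling. One model with 8 groups (treatment by time) was fitted over all probe sets with limma 3.58.1 in R 4.3.3 (lmFit, eBayes), and p-values were adjusted within each comparison (Benjamini-Hochberg, all tested probe sets), with calls at an adjusted p of 0.05 or less. The study gives q-values without naming the test. An exact permutation test planned for the feeding difference between AOS probe sets is not reported, since that contrast chose them. The code was tested on simulated data. Groups came from the sample labels. Named probe sets were the 3 members, others annotated as AOS or listed between its rows, and the 10 most alike by r. The brightest probe set with values on all arrays was named for each other step. The members and lists were chosen with earlier results of these data known. Probe sets were matched to genes and steps through the study's annotation, since the platform annotation used here names none of the 3. Alternatives were quantile normalization, median centring, a floor at the 20th percentile, complete probe sets alone, an intensity trend, only the arrays compared, a replicate block and leaving out each array.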

Additional observations from a re-analysis of the deposited data

Results flagged for a closer look

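The feeding difference of 1.S1_s_at changed between times by the test of the change itself, which marked it here. It was -1.04 at 24 h relative to 12 h (SE 0.247, limma adjusted p = 0.0110), and -0.73 at 48 h relative to 6 h (SE 0.247, limma adjusted p = 0.0281). All 12 of its control arrays were below the 20th percentile of their array. Feeding differences at single times also chose the members, so these p-values are not free of that choice.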

How the results depend on the processing

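The cause of the changes below was not tested. Rescaling the arrays (quantile normalization or median centring), an intensity trend and a restriction to complete probe sets changed no AOS call. They moved the median of all probe sets for the feeding difference at 48 h minus 6 h from 0.15 to 0.05 and 0.01 (quantile, centred). Raising dim values to the 20th percentile gave feeding differences of 2.54, 2.06, 1.19 and 1.49 for 1.S1_s_at at 6, 12, 24 and 48 h, and 2.43 and 2.41 for 2.S1_at at 24 and 48 h. With it, control leaves had 0.022 (12 minus 6 h) and 0.061 (48 minus 6 h) for 1.S1_s_at, and 0.15 (24 minus 12 h) and -0.39 (48 minus 6 h) for 2.S1_at; CBW-damaged leaves had -0.60 (12 minus 6 h) for 2.S1_at. The change in feeding difference became -0.48 (12 minus 6 h) for 1.S1_s_at and -1.51 (24 minus 12 h), -0.029 (48 minus 24 h) and -1.72 (48 minus 6 h) for 2.S1_at, and the feeding difference of 1.A1_at minus 2.S1_at, averaged over times, became 0.73. With only the arrays compared, values stayed at -1.06 (2.S1_at, control 48 minus 6 h), -0.46 (1.S1_s_at, CBW 12 minus 6 h) and -0.90 (1.A1_at, CBW 24 minus 12 h), but their calls changed.

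Leaving out 1 array at a time gave 3.89 to 4.70 for the feeding difference of 2.S1_at at 6 h. In control leaves it gave -0.998 to -0.19 (12 minus 6 h), -0.36 to 0.21 (24 minus 12 h) and -1.54 to -0.73 (48 minus 6 h) for 2.S1_at, and -0.14 to 0.74 (24 minus 12 h) and -0.85 to 0.036 (48 minus 24 h) for 1.A1_at. In CBW-damaged leaves it gave -0.54 to -0.31 for 1.S1_s_at (12 minus 6 h), -1.18 to -0.89 for 1.A1_at (48 minus 6 h) and -1.502 to -1.151 for 2.S1_at (24 minus 12 h). The change in feeding difference from 6 to 12 h was -0.12 to 0.66 for 1.A1_at and -0.42 to 0.39 for 2.S1_at. From 6 to 48 h it was -0.58 to 0.10 for 1.A1_at, -0.92 to -0.58 for 1.S1_s_at and -1.38 to -0.57 for 2.S1_at. Without control replicate 1 at 6 h the control change of 2.S1_at from 6 to 12 h was called (limma adjusted p = 0.0214), and without control replicate 3 at 6 h so was its change in feeding difference from 6 to 48 h (limma adjusted p = 0.0450).

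Replicate numbers are shared between groups, but deviations of same-numbered CBW and control arrays correlated from -0.17 to 0.52, above 0.1 in 6 of 12 pairs, so the numbers were not taken to pair arrays. A replicate block left the change of 1.A1_at in CBW-damaged leaves at 48 minus 6 h at -1.04 without its call (limma adjusted p = 0.0768) and changed no other AOS call. Over all probe sets, it moved the calls for the feeding difference at 48 minus 24 h to 208, against 105 without the block.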
